A study of Mus musculus with 6 samples.

Results

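The nuclear genes for respiratory complexes II to V were examined in interscapular brown adipose tissue (iBAT) of control and *ob/ob* mice. The genes were chosen by symbol alone, as *Cyc1*, *Cycs*, *Cyct*, *Sdha* to *Sdhd* and every symbol that starts with *Uqcr*, *Cox4i*, *Cox5*, *Cox6*, *Cox7*, *Cox8* or *Atp5*. The rule found 50 of the 20630 gene symbols with a usable probe on the array. They comprised 4 genes of complex II, 9 of complex III, 2 for cytochrome c, 18 of complex IV and 17 of complex V.

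Tissue came from male C57BL/6 mice aged 16 weeks by their labels, with 3 control and 3 *ob/ob* samples and 1 single-dye Agilent array per sample. *ob/ob* mice carry a mutation of the leptin gene in every cell and are obese and hyperglycemic, while the control genotype is labelled only as control and no treatment is given for either group. The study used this comparison to ask how gene expression in iBAT differs in a mouse with spontaneous obesity. The labels do not say whether each array holds the RNA of a single mouse, so p values measure only the spread between these samples.

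Complex II (succinate dehydrogenase) oxidizes succinate and passes electrons to ubiquinone, complex III passes them on to cytochrome c, and complex IV (cytochrome c oxidase) hands them to oxygen. Complexes III and IV pump protons out of the matrix, and complex V (ATP synthase) uses the returning protons to make ATP. In brown adipocytes UCP1 lets protons return without ATP being made, which releases heat, and this tissue is known for dense mitochondria and little ATP synthase. Several subunits of complex IV exist as isoforms that differ by tissue, and the heart and skeletal muscle isoforms *Cox7a1* and *Cox8b* are also known from brown fat.

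Levels are given as log2 quantile-normalized signal of the brightest probe of each gene, in the order control 1, 2 and 3 and then *ob/ob* 1, 2 and 3. A level is comparable between arrays for the same gene, but not between genes, because probes differ in brightness. A difference of 1 on this scale is a doubling. Of the 50 genes, 49 were detected on at least 3 of 6 arrays and tested, and 47 of them were detected on all 6. *Cox7b2*, a testis isoform, was detected on 2 arrays and was not tested.

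An array of each group stood apart from the others of its label. Across all 35448 probes tested, Spearman's correlation was 0.96 between control 1 and 2 and 0.97 between *ob/ob* 1 and 2. The correlation of control 3 was 0.64 with control 1 and 0.73 with control 2, but 0.92 with *ob/ob* 1 and 0.94 with *ob/ob* 2. That of *ob/ob* 3 was 0.57 with *ob/ob* 1 and 0.49 with *ob/ob* 2, but 0.86 with control 1 and 0.77 with control 2. Control 1, control 3 and *ob/ob* 1 were scanned together and the other arrays in a scan each. The share of probes well above background was 83.5% to 89.9% per array, and no spot was saturated.

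Defining markers of brown adipocytes were present on every array. *Ucp1* measured 13.05, 11.72 and 9.48 in controls and 8.93, 9.12 and 10.03 in *ob/ob*. Of 10 brown adipocyte markers, 7 were detected on all 6 arrays, and *Prdm16*, *Ebf2* and *Elovl3* on 3 or 4. Their summed level (log2 of the summed signals) ran from 11.97 to 15.70 in controls and from 10.97 to 12.83 in *ob/ob*. Skeletal muscle markers were present as well, with 12 of 15 detected on all 6 arrays, all but *Myh1*, *Mylpf* and *Mb*, and a summed level of 12.63 to 16.23 in controls and 10.38 to 17.46 in *ob/ob*. *Myh4*, a fast muscle myosin, measured 14.44, 14.96 and 11.16 in controls and 6.97, 6.96 and 14.25 in *ob/ob*, so that *ob/ob* 1 and 2 were far below the other 4 arrays. In bulk tissue, fewer cells of a type and less RNA per cell cannot be told apart.

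On average over the arrays, the subunit genes were mostly somewhat lower in *ob/ob* than in control iBAT, but no single gene passed the test. *Uqcrq* of complex III, *Cox8b* of complex IV and *Atp5d* of complex V had the lowest log2 fold changes of their complexes. Of the 49 subunits, 35 had a lower mean in *ob/ob*, where 57.1% of all 19007 genes tested did. The median log2 fold change was −0.47 for the subunits and −0.09 for all genes, and single subunits ranged from −2.52 for *Uqcrq* to 0.94 for *Sdhd*. With limma and Benjamini-Hochberg adjustment over all probes, 0 of 49 subunits were past an adjusted p of 0.05, and 0% of all genes were. By the brightest probe, 0 subunits were lower and 0 higher at an unadjusted p under 0.05, against 1.68% and 2.03% of all genes. Every adjusted p of a subunit rounded to 1. The methods' t-test and limma with trend and robust estimation also gave 0 past the adjusted threshold and 0 at an unadjusted p under 0.05. The groups did not separate for any subunit, while 4.19% of all genes were lower and 3.76% higher without overlap.

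**Figure D1:**
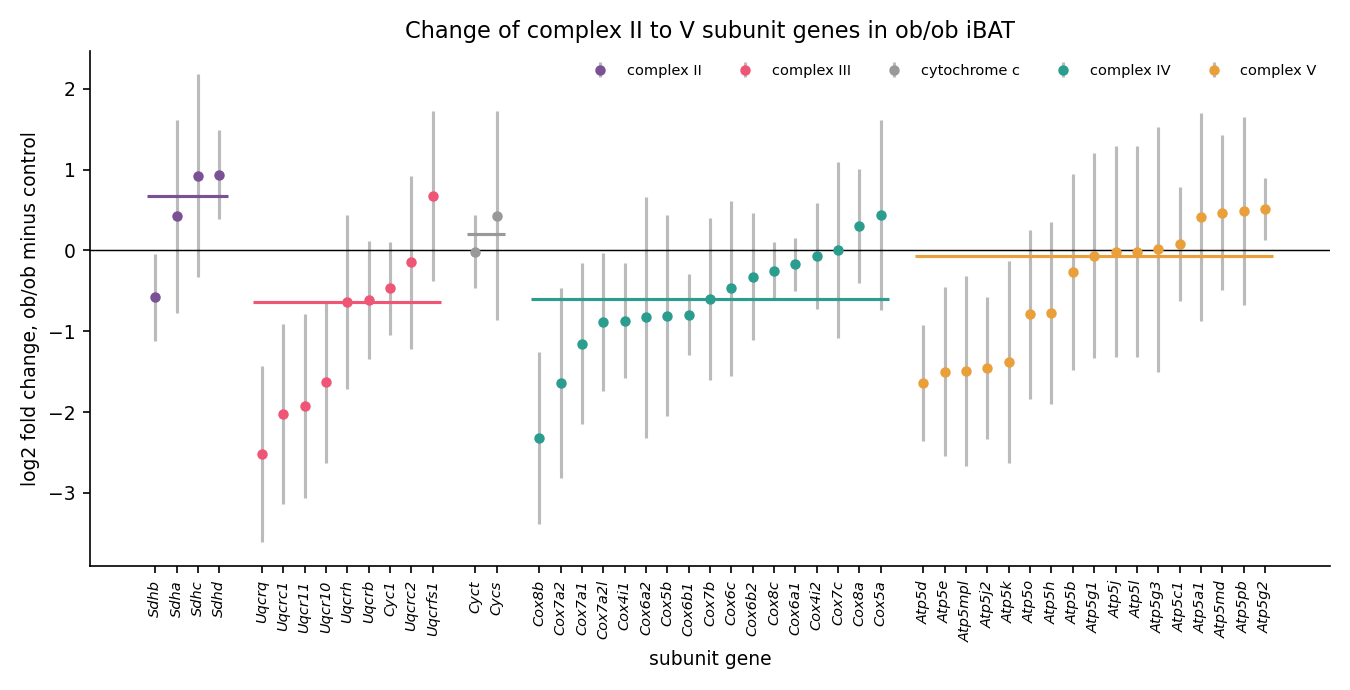
Log2 fold change of each of the 49 tested subunit genes, *ob/ob* minus control, with its standard error from limma, by complex, and a line at the median of each complex. Most points lie below 0, from −2.52 for *Uqcrq* to 0.94 for *Sdhd*, and 3 of the 4 complex II genes lie above it.

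The spread within each label was wide. The median over the subunits of the standard deviation among 3 arrays was 1.85 in controls and 1.11 in *ob/ob*. The subunit median was 12.51, 11.61 and 9.25 in controls and 10.37, 9.88 and 11.66 in *ob/ob*. Control 3 therefore had the lowest subunit median of all arrays, and *ob/ob* 3 lay above control 2. The median of all genes moved little, from 6.32 to 6.50.

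The 2 arrays that stood apart carried this spread for most subunits. Control 3 was below both other controls for 45 of 49 subunits and for 38.8% of all genes. *ob/ob* 3 was above both other *ob/ob* arrays for 44 of 49 subunits and for 41.5% of all genes. Control 3 was below even *ob/ob* 1 and 2 for 32 subunits and for 35.2% of all genes. Within each label the muscle and brown adipocyte markers moved with the subunits. Control 3 had the lowest summed level of controls and *ob/ob* 3 the highest of *ob/ob* for both lists. Unlike most subunits, both lists were higher on control 3 than on *ob/ob* 1 and 2. The summed level was 11.97 against 10.98 and 10.97 for brown adipocyte markers, and 12.63 against 10.38 and 10.50 for muscle markers. The part of these markers in the result was not tested. The summed level of white adipocyte and erythrocyte markers had the same order within each label, with control 3 at 10.44 and 11.87 and *ob/ob* 3 at 13.36 and 16.18. That of endothelial and macrophage markers was lowest on *ob/ob* 3, at 11.89 and 11.87. A summed level follows the brightest markers, and the medians of these lists went the other way within *ob/ob*. The endothelial median was 6.15, 5.80 and 7.23 in *ob/ob* 1, 2 and 3, and the macrophage median 7.02, 6.26 and 7.46.

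**Figure D2:**
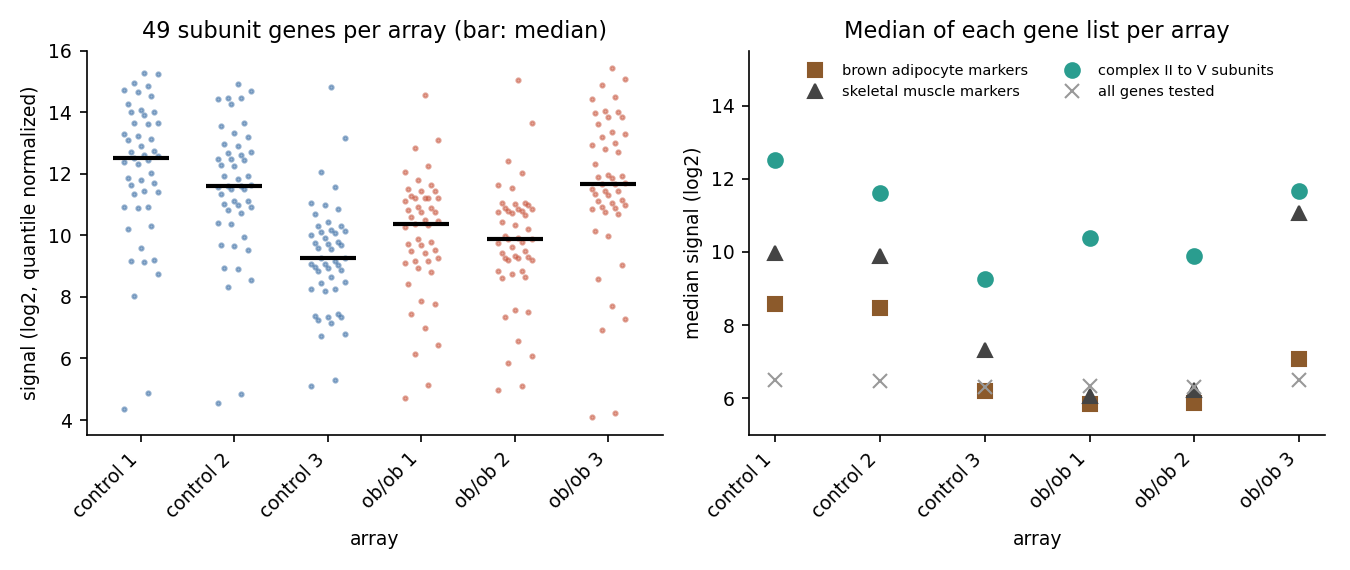
Left, log2 quantile-normalized signal of the 49 subunit genes on each of the 6 arrays, with a bar at the median. Right, the median log2 signal of the subunits, of the brown adipocyte and skeletal muscle markers and of all genes tested on each array. Within each label 1 array departs from the others, with control 3 low at 9.25 and *ob/ob* 3 high at 11.66 over the subunits.

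Leaving out control 3 moved the median log2 fold change of the subunits to −1.21, with 44 of 49 lower where 54.5% of all genes were. Then 16 subunits were lower at an unadjusted p under 0.05 and 0 higher, against 4.19% and 5.36% of all genes, and 0 passed the adjusted threshold (limma). These were *Uqcr10*, *Uqcr11*, *Uqcrc1* and *Uqcrq* of complex III, *Cox6b1*, *Cox7a1*, *Cox7a2*, *Cox7a2l*, *Cox7b* and *Cox8b* of complex IV, and *Atp5d*, *Atp5e*, *Atp5h*, *Atp5j2*, *Atp5k* and *Atp5mpl* of complex V. The lowest adjusted p among them was 0.238. Leaving out *ob/ob* 3 instead moved the median to −1.07, with 43 of 49 lower where 50.7% of all genes were. Leaving out control 1 brought the median to −0.04, with 25 of 49 lower, where all genes had a median of −0.10 and 56.2% were lower, so that the subunits no longer lay below all genes. Over the other 3 leave-outs the median ran from −0.33 to −0.25 with 30 lower in each. Without *ob/ob* 3, 2 subunits, *Cox6a2* at −2.42 and *Atp5d* at −2.02, were lower at an unadjusted p under 0.05 and 0 higher, against 4.46% and 5.84% of all genes.

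Complex II differed in sign from the larger complexes when all arrays were used. Its median log2 fold change was 0.67, with 1 of 4 genes lower, but it was −0.45 without control 3 and −0.28 without *ob/ob* 3, and 0.88 to 1.25 without any one of the other arrays. *Sdhd*, a membrane anchor, measured 10.22, 9.51 and 8.48 in controls and 10.37, 9.80 and 10.86 in *ob/ob*. All *ob/ob* values exceeded control 2 and 3, but *ob/ob* 2 was below control 1, and the log2 fold change was 0.94 (SE 0.55, exact permutation p = 0.20, n = 3 each). *Sdhb*, the iron-sulfur subunit, measured 14.85, 14.48 and 13.17 in controls and 13.09, 13.66 and 14.00 in *ob/ob*. It was the member of complex II with a lower mean in *ob/ob* (−0.58, SE 0.54), and its groups overlapped. A dimmer probe of *Sdhb* gave 0.55, and the mean of both probes −0.01. The log2 fold change was 0.42 (SE 1.19) for the flavoprotein *Sdha* and 0.92 (SE 1.26) for the other anchor, *Sdhc*.

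In complex III the mean was lower in *ob/ob* for 8 of 9 genes and the median log2 fold change was −0.64. It was −1.77 without control 3 and −1.21 without *ob/ob* 3, and −0.50 to −0.14 without any one of the others. *Uqcrq*, a small accessory subunit, had the lowest log2 fold change of all subunits and measured 14.65, 14.47 and 10.85 in controls and 10.50, 10.19 and 11.72 in *ob/ob*. Control 1 and 2 were above every *ob/ob* array, while control 3 lay below *ob/ob* 3. The means were 13.32 ± 2.15 and 10.80 ± 0.80 (SD, n = 3 each), and the log2 fold change was −2.52 (SE 1.09, exact permutation p = 0.20). Without control 3 it was −3.76 (SE 0.56, limma, adjusted p = 0.244), and without *ob/ob* 3 it was −2.97 (SE 1.24).

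*Uqcrfs1*, the Rieske iron-sulfur protein that passes electrons within complex III, was the one gene of the complex with a higher mean in *ob/ob*. It measured 12.60, 11.61 and 9.18 in controls and 11.20, 10.89 and 13.31 in *ob/ob*, with overlap, and the log2 fold change was 0.67 (SE 1.05). It took the other sign without control 3, at −0.30, and without *ob/ob* 3, at −0.08. The core protein *Uqcrc1* had a log2 fold change of −2.02 (SE 1.11) and the small subunits *Uqcr11* and *Uqcr10* of −1.93 (SE 1.14) and −1.62. The values were −0.64 for *Uqcrh*, −0.61 for *Uqcrb*, −0.47 for the heme protein *Cyc1* and −0.15 for the core protein *Uqcrc2*. Dimmer probes of *Uqcrb* gave −0.73 and −0.98, the latter without overlap between groups.

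Cytochrome c carries electrons from complex III to complex IV and has a somatic gene, *Cycs*, and a testis gene, *Cyct*, with a median log2 fold change of 0.21 that was −0.21 without control 3, −0.17 without *ob/ob* 3 and 0.29 to 0.54 without any one of the others. *Cycs* measured 13.64, 12.44 and 9.71 in controls and 11.51, 11.06 and 14.50 in *ob/ob*. The highest value was in *ob/ob* 3 and the lowest in control 3, and the log2 fold change of 0.43 (SE 1.29) was smaller than the spread, and it was −0.68 without control 3 and −0.64 without *ob/ob* 3. *Cyct* was dim, detected on 5 arrays, and measured 4.37, 4.56 and 5.32 in controls and 5.13, 4.98 and 4.09 in *ob/ob*.

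In complex IV the mean was lower in *ob/ob* for 14 of 17 genes tested and the median log2 fold change was −0.60. It was −1.45 without control 3 and −1.07 without *ob/ob* 3, and −0.44 to −0.28 without any one of the others. *Cox8b*, the heart, muscle and brown fat isoform of a small subunit, had the lowest log2 fold change of the complex and measured 14.97, 14.45 and 11.04 in controls and 10.88, 10.72 and 11.88 in *ob/ob*. As for *Uqcrq*, control 1 and 2 lay above every *ob/ob* array and control 3 below *ob/ob* 3. The log2 fold change was −2.32 (SE 1.06, exact permutation p = 0.20, n = 3 each). Without control 3 it was −3.55 (SE 0.51, limma, adjusted p = 0.238), and without *ob/ob* 3 it was −2.68 (SE 1.23). *Cox5a*, a nuclear-encoded matrix-side subunit, had the highest and measured 12.73, 11.50 and 8.87 in controls and 10.76, 10.45 and 13.19 in *ob/ob*. The value of 0.44 (SE 1.17) was smaller than the spread within each label, and it was −0.65 without control 3 and −0.42 without *ob/ob* 3. Among the subunits outside the pairs compared, the log2 fold change was −0.89 for *Cox7a2l*, known as a factor of supercomplexes, −0.81 for *Cox5b*, −0.47 for *Cox6c*, 0.01 for *Cox7c* and −0.26 for the dim testis gene *Cox8c*.

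The isoform pairs were compared by the log2 difference of both genes within an array, which is independent of the overall brightness of that array. Only its shift between groups can be read, since its size on any array also holds the brightness of each probe. Of 10 pairs, 9 were measured. For 1 of them, *Cox8a* and *Cox8b*, the groups did not overlap.

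*Cox8a* is the isoform found in most tissues. It measured 12.37, 11.57 and 9.77 in controls and 11.65, 11.03 and 11.93 in *ob/ob*, with a log2 fold change of 0.30 (SE 0.71) that was −0.43 without control 3 and 0.10 without *ob/ob* 3. *Cox8a* minus *Cox8b* was −2.60, −2.88 and −1.27 in controls and 0.77, 0.31 and 0.05 in *ob/ob*. Every *ob/ob* array, including *ob/ob* 3, was above every control array, including control 3. The mean was −2.25 ± 0.86 in controls and 0.37 ± 0.37 in *ob/ob* (SD, n = 3 each), a shift of 2.62. The exact two-sided permutation p was 0.10, the smallest that 3 against 3 arrays allow, and 0.90 after adjustment over the 9 pairs. The shift ran from 2.31 to 3.11 when any one array was left out. A dimmer probe of *Cox8a* gave −2.60, −2.89 and −1.93 in controls and −0.76, −1.05 and 0.23 in *ob/ob*, again without overlap and with a shift of 1.95. Among the brown adipocyte markers 9 of 10 had a lower mean in *ob/ob* (median −2.07), where 57.1% of all genes did. Among the muscle markers 13 of 15 did (median −1.02). The count was 6 of 7 for endothelial, 6 of 8 for white adipocyte, 4 of 6 for erythrocyte and 2 of 9 for macrophage markers. The part of these markers in the shift of the pair was not tested.

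The start regions of both genes are printed because this was the 1 pair of the 9 measured whose groups did not overlap. They run from 150 bases before to 10 bases from the annotated start, on the minus strand of RefSeq GRCm38.p6, at chr19:7217607-7217766 for *Cox8a* and chr7:140900437-140900596 for *Cox8b*. Capitals mark the ETS motif, searched as CCGGAAG on both strands and seen here as its reverse complement CTTCCGG.
Cox8a: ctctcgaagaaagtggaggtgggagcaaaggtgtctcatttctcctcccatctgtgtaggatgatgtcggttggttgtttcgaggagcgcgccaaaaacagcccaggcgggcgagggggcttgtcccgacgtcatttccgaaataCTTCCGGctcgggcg
Cox8b: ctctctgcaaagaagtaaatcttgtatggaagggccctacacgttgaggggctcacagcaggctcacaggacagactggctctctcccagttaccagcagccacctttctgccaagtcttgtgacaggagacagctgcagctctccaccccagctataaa

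The *Cox8b* window held none of the 4 motifs searched. Over windows of 250 bases before to 50 after the start, RefSeq gave a sequence for 38 of the 50 subunits and for 27025 genes in all. The ETS motif, bound by GABP among other factors, was in 13 of the 38 (34.2%) and in 9.93% of all genes. The NRF1 motif, which reads the same on both strands, was in 4 (10.5%, all genes 1.07%), among them *Uqcrc1* and *Cox6a1*. The ERR motif TCAAGGTCA was in *Sdhd* and *Atp5g3* (5.26%, all genes 0.466%), and the YY1 motif AAGATGGC in 3 (7.89%, all genes 3.19%). No match overlapped a match of another motif, and a match describes letters only.

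**Figure D3:**
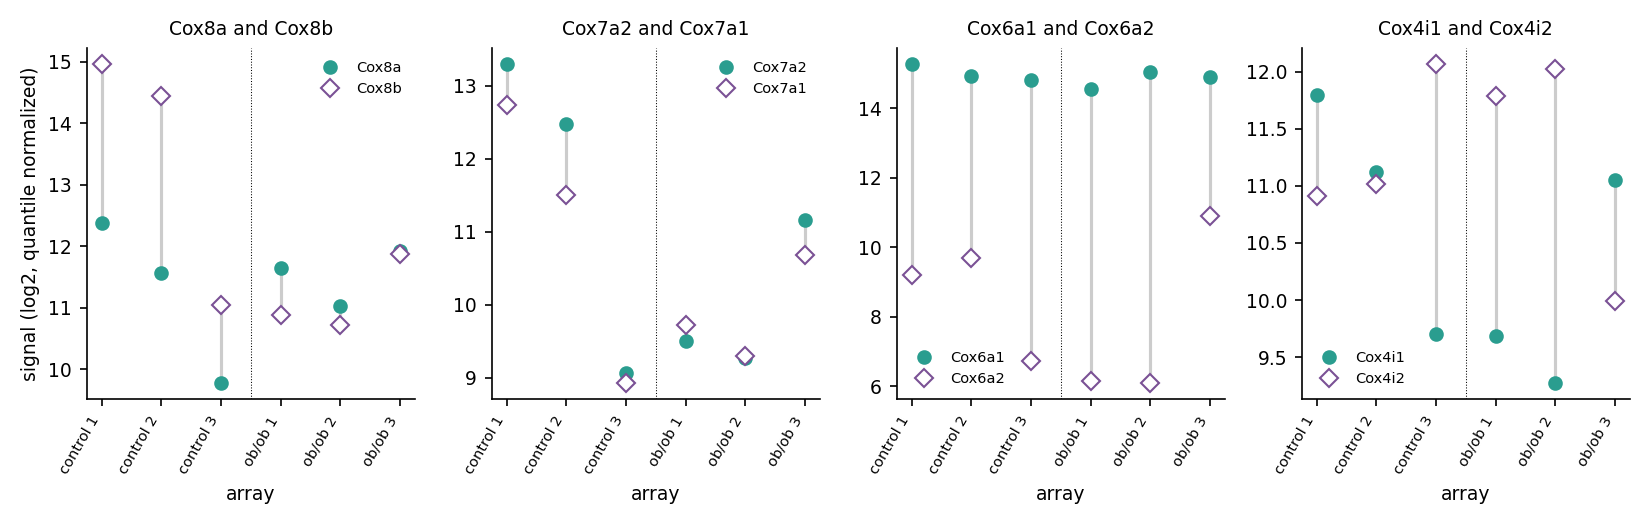
Log2 quantile-normalized signal of both isoforms of 4 pairs on the 6 arrays, with a grey line joining them and a dotted line between the groups. *Cox8a* minus *Cox8b* runs from −2.88 to −1.27 on the control arrays and from 0.05 to 0.77 on the *ob/ob* arrays, while the differences of the other pairs overlap between groups. Only the shift between groups can be read, not which gene of a pair is higher.

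The other muscle-type isoforms did not separate from their partners. *Cox7a1*, the heart, muscle and brown fat isoform, measured 12.73, 11.50 and 8.93 in controls and 9.72, 9.30 and 10.69 in *ob/ob* (−1.15, SE 0.99). Its partner *Cox7a2*, found in most tissues, measured 13.31, 12.48 and 9.07 in controls and 9.50, 9.27 and 11.16 in *ob/ob* (−1.64, SE 1.17). For both genes control 1 and 2 were above every *ob/ob* array and control 3 was below every one, and the log2 fold changes without control 3 were −2.22 and −2.92. *Cox7a2* minus *Cox7a1* was 0.57, 0.98 and 0.14 in controls and −0.22, −0.03 and 0.47 in *ob/ob*, a shift of −0.49 with overlap (exact permutation p = 0.20, n = 3 each). The sign was opposite to that of the *Cox8* pair, in that the isoform of most tissues had the lower log2 fold change.

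*Cox6a2*, the heart and muscle isoform of another small subunit, measured 9.20, 9.68 and 6.72 in controls and 6.15, 6.08 and 10.89 in *ob/ob*. Its highest array was *ob/ob* 3 and its lowest were *ob/ob* 1 and 2, as for the summed muscle markers, whose part was not tested. The log2 fold change was −0.83 (SE 1.49), and −2.42 without *ob/ob* 3. *Cox6a1*, the isoform of other tissues, measured 15.29, 14.93 and 14.83 in controls and 14.56, 15.06 and 14.90 in *ob/ob*. Its log2 fold change of −0.17 had the smallest standard error of the genes given by sample, 0.33. The pair shifted by 0.66 (exact permutation p = 0.80, n = 3 each), and by −0.26 to 2.22 with any one array left out.

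*Cox4i1*, the common isoform of a regulatory subunit, measured 11.79, 11.12 and 9.70 in controls and 9.69, 9.27 and 11.05 in *ob/ob* (−0.87, SE 0.71). *Cox4i2*, the lung isoform known for its induction by low oxygen, measured 10.91, 11.02 and 12.07 in controls and 11.79, 12.03 and 9.99 in *ob/ob* (−0.07, SE 0.65). *Cox4i2* was thus high where most subunits were low, on control 3 and *ob/ob* 1 and 2. *Cox6b1*, which sits on the intermembrane side of complex IV, measured 8.75, 8.93 and 7.33 in controls and 7.43, 7.50 and 7.70 in *ob/ob* (−0.79, SE 0.50). Its testis isoform *Cox6b2* measured 8.04, 8.33 and 9.58 in controls and 8.43, 9.63 and 6.91 in *ob/ob* (−0.32, SE 0.78). *Cox6b1* was low on control 3 and *Cox6b2* high there, and both pairs overlapped between groups, with shifts of −0.80 and −0.47. With any one array left out these ran from −1.96 to −0.06 and from −1.44 to 0.21.

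*Cox7b*, the common partner of the untested *Cox7b2*, measured 12.57, 11.93 and 8.97 in controls and 10.29, 9.89 and 11.50 in *ob/ob* (−0.60, but 0.11 without control 1). The pair was not measured, because *Cox7b2* lay between 2.47 and 4.85 and was mostly not well above background. *Cycs* minus *Cyct* shifted by 0.44 (exact permutation p = 0.90, n = 3 each), and by −0.95 to 1.48 with any one array left out.

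In complex V the median log2 fold change was −0.07, with 11 of 17 genes lower, and it was −1.21 without control 3 and −1.35 without *ob/ob* 3. It took the other sign without any one of the other 4 arrays, at 0.16 to 0.55. *Atp5d*, the delta subunit of the central stalk, had the lowest log2 fold change of the complex and measured 9.17, 8.53 and 6.79 in controls and 6.44, 5.84 and 7.28 in *ob/ob*. Control 1 and 2 were above every *ob/ob* array, and control 3 lay between *ob/ob* 1 and 3. The log2 fold change was −1.64 (SE 0.72, exact permutation p = 0.20, n = 3 each), −2.33 without control 3 and −2.02 without *ob/ob* 3. It was −1.50 for the other stalk subunit *Atp5e*, and −1.49, −1.45 and −1.38 for *Atp5mpl*, *Atp5j2* and *Atp5k*, small proteins of the membrane part. A dimmer probe of *Atp5k* gave −2.07, below the value of *Atp5d*.

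The log2 fold changes of the catalytic head were nearer to 0, at 0.41 for *Atp5a1* and −0.27 for *Atp5b*, and that of the central stalk subunit *Atp5c1* was 0.08. In the peripheral stalk they were −0.79 for *Atp5o*, −0.78 for *Atp5h*, −0.02 for *Atp5j* and 0.49 for *Atp5pb*. The remaining membrane subunits *Atp5l* and *Atp5md* stood at −0.02 and 0.47.

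The c subunits of the membrane rotor, whose amount is low in brown fat, come from *Atp5g1*, *Atp5g2* and *Atp5g3*, which encode the same mature protein. *Atp5g1* measured 9.58, 9.93 and 7.25 in controls and 7.78, 7.33 and 11.45 in *ob/ob*, with a log2 fold change of −0.07 (SE 1.27). By the brightest probe, *Atp5g2* had the highest log2 fold change in complex V, at 0.51 (SE 0.38). It measured 10.90, 10.36 and 10.17 in controls and 10.76, 10.75 and 11.45 in *ob/ob*. Another probe of *Atp5g2* gave −0.34, and the mean of both probes 0.09. *Atp5g3* measured 13.25, 12.60 and 9.26 in controls and 10.93, 9.77 and 14.45 in *ob/ob*, with a log2 fold change of 0.01 (SE 1.51). *Atp5g1* and *Atp5g3* were both highest on *ob/ob* 3, whereas *Atp5g2* spanned the narrowest range of the 3 genes. The shifts of *Atp5g1* minus *Atp5g2*, *Atp5g1* minus *Atp5g3* and *Atp5g2* minus *Atp5g3* were −0.58, −0.08 and 0.50, all with overlap. Each took both signs over the arrays left out in turn, from −1.64 to 0.06, from −0.52 to 0.31 and from −0.35 to 1.63.

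Because the subunits rose and fell together across the arrays, each was also set against the median of the 49 subunits on the same array. This relative level was added after the data were seen. It removes what the subunits share, so that it shows their proportions and not their amount. On this scale 11 of 49 subunits were lower in *ob/ob* without overlap and 7 were higher, where 1.14% and 3.34% of all genes were. The subtraction takes the shared swing out of the subunits but adds it to genes that do not follow them. Subunits can therefore separate more easily by construction, and the shares of all genes are a description of scale only. The median relative difference over all genes was 0.40. The exact permutation p of each of these 11 and 7 subunits was 0.10, the smallest possible with n = 3 each. Groups without overlap always give this p, so it adds no support.

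*Uqcrq* differed most, with relative levels of 2.14, 2.86 and 1.59 in controls and 0.14, 0.32 and 0.05 in *ob/ob*. *Cox8b* followed with 2.45, 2.84 and 1.79 in controls and 0.52, 0.85 and 0.22 in *ob/ob*. For both genes control 3 and *ob/ob* 3 lay with the other arrays of their label, and the differences between group means were −2.03 and −1.83. *Uqcr11* had relative levels of 1.75, 1.95 and 0.82 in controls and 0.11, 0.11 and −0.01 in *ob/ob*, a difference of −1.44. The difference was −1.53 for *Uqcrc1*, −1.16 for *Atp5d*, −1.15 for *Cox7a2*, −1.13 for *Uqcr10*, −1.01 for *Atp5e*, −0.96 for *Atp5j2*, −0.66 for *Cox7a1* and −0.40 for *Cox7a2l*. Complexes III, IV and V each held genes of this kind, and complex II and cytochrome c held none.

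Of the 7 that were higher, *Sdhc* had relative levels of 1.11, 0.86 and 0.66 in controls and 1.70, 1.76 and 3.40 in *ob/ob*, a difference of 1.41. *Uqcrfs1* had 0.09, 0.00 and −0.07 in controls and 0.83, 1.02 and 1.64 in *ob/ob*, a difference of 1.16. In complex III the Rieske protein was thus higher and *Uqcrq*, *Uqcrc1*, *Uqcr10* and *Uqcr11* lower relative to the subunit median. The difference was 0.98 for *Atp5pb*, 0.96 for *Atp5md*, 0.92 for *Cox5a*, 0.91 for *Cycs* and 0.90 for *Atp5a1*. By complex, the median relative difference was 1.16 in complex II, 0.69 for cytochrome c, 0.42 in complex V, −0.11 in complex IV and −0.15 in complex III. Without control 3, 17 subunits were lower and 12 higher without overlap, and without *ob/ob* 3, 15 and 9. Groups separate more easily with fewer arrays, so these counts are not comparable with those of all arrays and do not show a clearer difference. No share of all genes was counted for them.

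**Figure D4:**
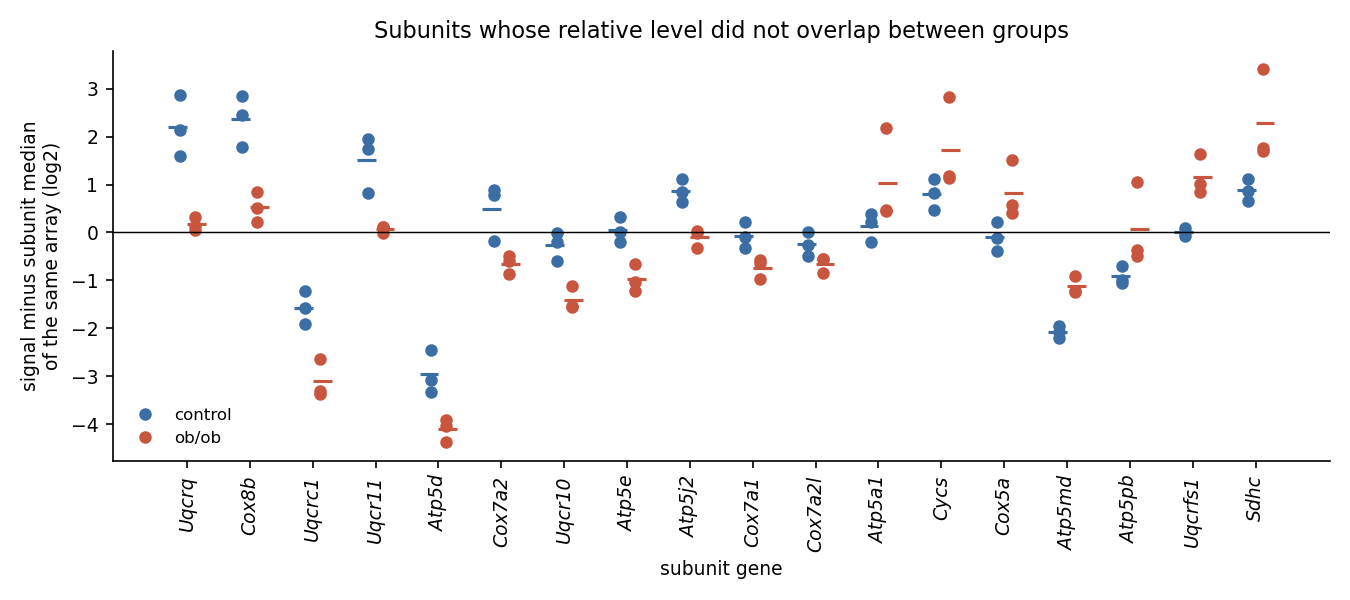
Log2 signal minus the median of the 49 subunits on the same array, for the 11 subunits that were lower and the 7 that were higher in *ob/ob* without overlap. Points are arrays and lines are group means. *Uqcrq* and *Cox8b* lie between 1.59 and 2.86 in controls and between 0.05 and 0.85 in *ob/ob*, while *Sdhc* and *Uqcrfs1* lie higher in *ob/ob*.

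Other probes of these genes did not always give the same relative difference. A further probe of *Uqcrq* (−1.23), *Uqcr10* (−1.14), *Cycs* (0.83) and *Atp5pb* (1.06) separated the groups in the same direction. Another probe of *Uqcr10* (0.44), the second of *Atp5j2* (−0.09) and of *Sdhc* (1.09) overlapped. For *Cox7a2l*, counted among the 11 by its brightest probe, another probe separated in the opposite direction (1.06) and another overlapped (−0.42). The mean of its probes gave 0.10, so that its relative level has no settled direction. Over all 49 subunits, 17 had several tested probes, and for 5 the fold changes differed in sign.

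In the scan that held both groups, *ob/ob* 1 against control 1 and 3, the log2 fold change was −2.25 for *Uqcrq*, −2.12 for *Cox8b* and −1.54 for *Atp5d*. For *Cox8a* it was 0.58. The subunit median was −0.56 and 38 of 49 were lower, where all genes had a median of −0.06 and 54.2% were lower. A single *ob/ob* array enters these values.

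Of 38 listed assembly factors, 34 were tested. Of these, 18 had a lower and 16 a higher mean in *ob/ob*, where 57.1% of all genes were lower. Their median log2 fold change was −0.06. At an unadjusted limma p under 0.05, 0 were lower and 0 higher, against 1.68% and 2.03% of all genes. The balance rested on all arrays being used, since 24 of 34 were lower, with a median of −0.34, both without control 3 and without *ob/ob* 3. Of all genes, 54.5% and 50.7% were lower in these settings. Without control 3, 5 were lower and 0 higher at an unadjusted p under 0.05, against 4.19% and 5.36% of all genes. Without *ob/ob* 3 the counts were 0 and 2, against 4.46% and 5.84% of all genes. *Uqcc3*, a complex III factor, had the lowest value at −1.63. The highest was 1.23 (SE 1.63) for *Sdhaf2*, which helps attach the flavin of complex II. *Sdhaf2* was detected on 4 arrays. It measured 6.55, 5.62 and 1.97 in controls and 5.28, 3.83 and 8.73 in *ob/ob*, with overlap. *Ttc19*, a complex III factor, was the 1 of the 34 that was higher without overlap between groups, by 0.50, where 3.76% of all genes were. Of 36 complex I subunits, 34 had a lower mean, with a median of −0.94. The median of complex I was −1.83 without control 3 and −1.40 without *ob/ob* 3.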

How the data were processed

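The authors deposited Agilent Feature Extraction (version 11.0.1.1) output for each array, with spot intensity already background-corrected, and a table of log2 values that they quantile normalized in GeneSpring. Flags in the deposited files were used to leave out outlier spots and to call detection. The background-corrected intensity was log2 transformed, averaged per probe and quantile normalized, and 35448 probes detected (at least 50% of spots well above background) on 3 or more of 6 arrays were fitted with limma (version 3.58.1, R version 4.3.3), *ob/ob* minus control. Adjusted p values follow Benjamini and Hochberg over all these probes. Of 39429 probes, 104 with outlier flags were left out. Symbols came from RefSeq GRCm38.p6 through the accessions of 28684 probes, of which 27234 matched. Quantile normalization forces all arrays to the same distribution, so changes are relative to other genes, and a shift of all genes together cannot be seen. The brightest probe stands for a gene. The smallest exact p with 3 against 3 is 0.10, and the number of arrays limits precision.

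The genes named with values in every sample were the isoform pairs, the largest rise and fall within each complex among genes detected on all 6 arrays, and any gene with no overlap and an unadjusted p under 0.05. Relative levels of further genes were named after their values were seen. The members and lists were chosen with earlier results of these data known. Alternatives were 75th percentile scaling, normexp background correction (offset 50), the authors' values, other detection filters, other tests, the mean of a gene's probes, scan and replicate blocks, and leaving out each array. The limma steps were tested on simulated data.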

Additional observations from a re-analysis of the deposited data

How the results depend on the processing

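The 75th percentile scaling moved the median of all genes from −0.09 to −0.30 and that of the subunits from −0.47 to −0.48, so the subunits lay 0.38 below all genes before and 0.19 below after (36 of 49 lower, with 67.2% of all genes lower). No subunit passed the adjusted threshold under any alternative. With each array left out in turn, the subunit median ran from −1.21 to −0.04, the number lower from 25 to 44, those lower at an unadjusted p under 0.05 from 0 to 16, and those lower and higher relative to the subunit median without overlap from 11 to 17 and from 7 to 12. The count of subunits higher on the relative scale moved to 11 with normexp. Fewer arrays separate more easily, so the counts without overlap after leaving out an array are not comparable with those of all arrays. With the scan as a block a single *ob/ob* array remained, and a count without overlap has no meaning there. *Cox8a* minus *Cox8b* changed by 1.95 to 3.11 under all alternatives.

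The sign of small changes turned. With 75th percentile scaling *Atp5g1* was 0.0077 and *Atp5g3* −0.23, with the authors' values *Atp5g3* was −0.00065, and with normexp *Atp5g1* was 0.0051, *Cox4i2* 0.0051 and *Cyct* 0.11. With the scan as a block *Atp5g3* was −0.33, *Cox4i2* 0.30, *Cox5a* −0.035, *Cycs* −0.17 and *Cyct* 0.29, and with the mean of all probes *Cox8a* was −0.039. Over single arrays left out, *Atp5g1* ran from −1.37 to 0.69, *Atp5g3* from −1.35 to 0.99, *Cox4i2* from −0.44 to 0.57, *Cox5a* from −0.65 to 1.28, *Cox6b2* from −0.98 to 0.38, *Cox7b* from −1.69 to 0.11, *Cox8a* from −0.43 to 0.87, *Cycs* from −0.68 to 1.28, *Cyct* from −0.21 to 0.31 and *Uqcrfs1* from −0.30 to 1.41. The cause was not tested.

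Deviations of same-numbered arrays from their group means correlated at −0.78, −0.66 and −0.85, and those of control 1 and *ob/ob* 3 at 0.87. Control 3 and *ob/ob* 3 stood apart from their labels and shape these deviations. The correlations therefore cannot show whether the samples were paired. With the replicate number as a block, 0 subunits were lower and 0 higher at an unadjusted p under 0.05, and 0 passed the adjusted threshold.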
